A study of Mus musculus with 4 samples.

Results

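The genes described are 36 genes of the TGF beta and YAP pathways, taken as the rows of the deposited TPM table whose gene name equals one of these symbols, out of 52630 gene identifiers. They comprise 15 target genes of YAP and TEAD, 4 genes for YAP, TAZ and TEAD factors, 6 genes for SMAD3 and the feedback regulators of SMAD signalling, 3 other genes induced by TGF beta, 3 ID genes, and 5 genes for ligands and receptors. The symbol Lats2 stood on a second identifier (ENSMUSG00000114942) that was listed at 0 in every library, so the 36 genes took 37 rows. Of the 36 genes, 34 had a mean of at least 1 TPM (a transcript abundance scaled by gene length and by the library's total) over the 4 libraries and were tested.

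The tested group was AML12 cells given lentivirus with a short hairpin RNA against Topors (shTopors), and its control was AML12 cells given lentivirus with a control hairpin (shCtrl), with 2 libraries each. AML12 is a mouse hepatocyte line derived from animals with a human TGF-alpha transgene, so both groups carry it. Both groups also shared the medium, with 10% serum, an insulin, transferrin and selenium supplement and 0.1 µM dexamethasone, the dose of 200 µl of virus concentrate, a change of medium at 24 hours and harvest at day 5. The labels give neither the hairpin sequences nor the number of hairpins used. They also leave unstated whether libraries 1 and 2 of a group were separate cultures, so each p-value reflects library-to-library spread alone, which may be technical.

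TGF beta ligands bind a pair of receptor kinases, TGFBR2 and TGFBR1, which phosphorylate SMAD2 and SMAD3. These enter the nucleus with SMAD4 and induce, among others, their own inhibitors SMAD7, SKIL and PMEPA1. SMAD6 and SKI also inhibit SMAD signalling and are grouped with them here. YAP and its paralog TAZ (encoded by Wwtr1) are held in the cytoplasm by the Hippo kinases MST and LATS, and in the nucleus they drive transcription through TEAD factors at genes such as Ctgf, Cyr61 and Ankrd1. In liver, YAP is known for its control of organ size and of the choice between hepatocyte and bile duct fate, TGF beta for growth arrest and fibrosis, and the ID genes as targets of bone morphogenetic protein (BMP) signalling.

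Topors itself was at 4.31 and 4.65 TPM in shTopors and at 21.9 and 29.2 TPM in shCtrl, so both knockdown libraries went with their labels. TPM keeps no depth, so how many reads stand behind a value is not known here. Among 11 hepatocyte markers, Cyp2e1 was listed at 0 in every library, and Tat and Cps1 stayed under 1 TPM. The 11 summed to 2042 and 2482 TPM in shTopors and to 3338 and 5340 TPM in shCtrl, and Alb was at 4.15 and 402 TPM in shTopors and at 118 and 271 TPM in shCtrl. Of the 8 hepatocyte markers tested, 3 lay below both controls (Apob, Trf and Ttr), a share near that of all genes tested (37.5%, against 35.2%). There were 0 above both (against 14.6%) and 4 with the knockdown libraries on opposite sides (50%, against 16.5%), namely Alb, Apoa1, Hnf4a and Serpina1a. Ttr was at 195 and 410.3 TPM in shTopors and at 1119 and 2168 TPM in shCtrl, while Apoa1 was at 113 and 11.5 TPM in shTopors and at 12.3 and 28.4 TPM in shCtrl. Hnf4a was at 179 and 95.3 TPM in shTopors and at 158 and 156 TPM in shCtrl. In bulk RNA, fewer cells of a type and less RNA per cell cannot be told apart. The 9 markers of stellate cells and fibroblasts summed to 0.612 and 0.857 TPM in shTopors and to 1.04 and 0.901 TPM in shCtrl, with Col1a2, Col3a1 and Lrat at 0 throughout. The 5 endothelial markers summed to under 1 TPM in each library with Cdh5 and Lyve1 at 0, and of the 6 leukocyte markers only Cd68 reached 1 TPM, in shTopors 2. Of the 5 bile duct markers Epcam stayed under 1 TPM, while the list summed to 1891 and 1088 TPM in shTopors and to 952 and 1412 TPM in shCtrl. Within it Krt19 was at 1396 and 345 TPM in shTopors and at 341 and 296 TPM in shCtrl. Sox9 was at 26.9 and 42.1 TPM in shTopors and at 76.8 and 91.2 TPM in shCtrl. Krt7 was at 127 and 64.4 TPM in shTopors and at 92.6 and 106 TPM in shCtrl, on opposite sides. Spp1 was at 341 and 636 TPM in shTopors and at 441 and 919 TPM in shCtrl, with overlap. Of the 4 tested, 1 lay below both controls (25%, against 35.2% of all tested genes) and 1 above both (25%, against 14.6%). For 1 the knockdown libraries stood on opposite sides (25%, against 16.5%). The part of this in the results below was not tested.

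Of the 34 tested genes, 0 passed the adjusted threshold of 0.05 when limma was fitted across 13509 genes, in which 5 genes passed, a background of 0.037%. At an unadjusted p under 0.05, 13 of the 34 (38.2%) were lower in shTopors and 0 were higher, against 10.7% of all tested genes lower and 3.98% higher. Both shTopors libraries lay below both shCtrl libraries for 19 of the 34 (55.9%) and above both for 0, against 35.2% and 14.6% of all tested genes. The median difference, shTopors minus shCtrl on the log2(TPM + 1) scale, was -0.505 for the 34 genes and -0.183 for all genes tested. This scale understates the difference of low genes. The median over all genes was 0.00732 when the libraries were scaled by median of ratios and -0.00645 with quantile normalization. After either scaling 17 of the 34 genes lay below both controls, against 22.6% of all genes with the first and 22.7% with the second.

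**Figure D1:**
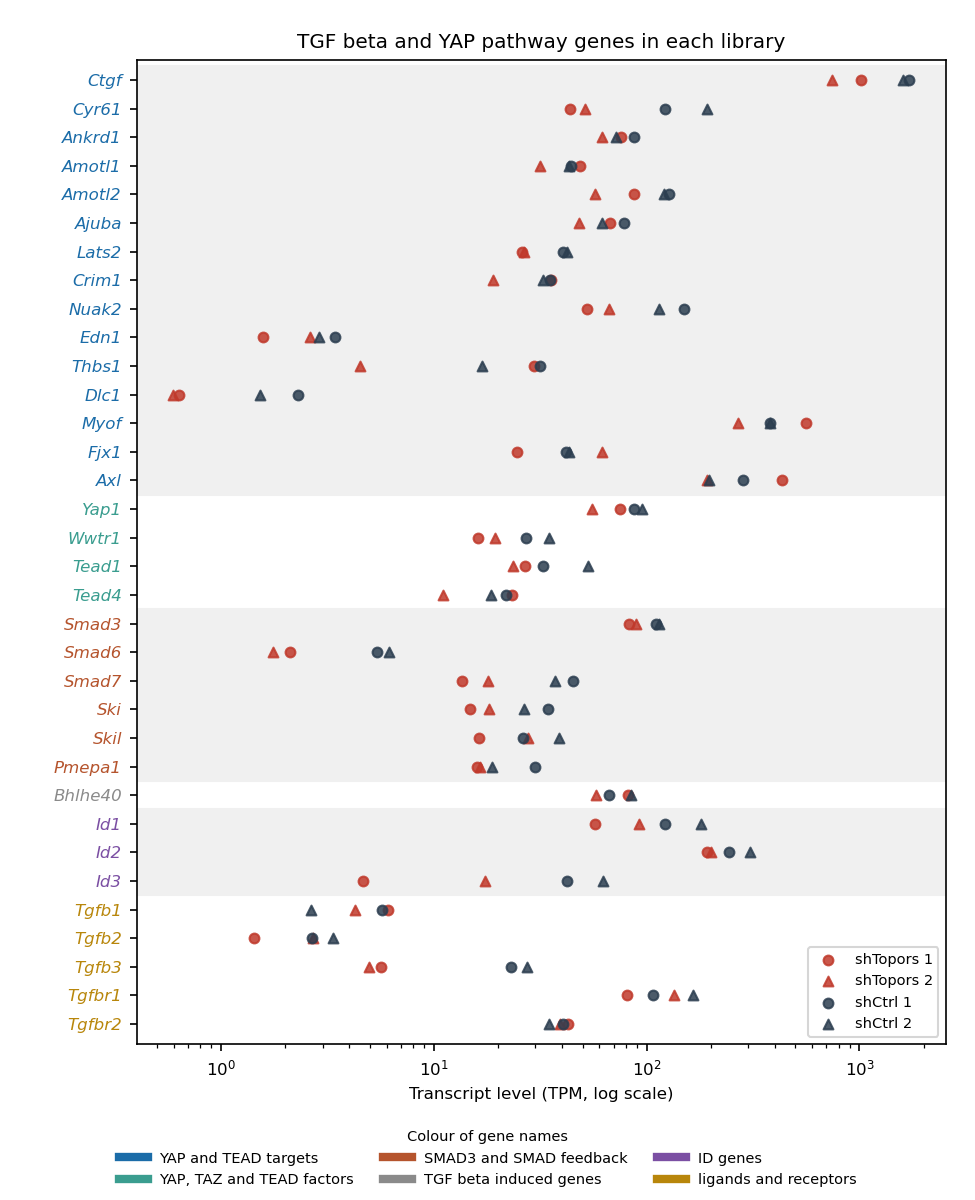
Level of each tested gene in TPM (log axis), with circles and triangles for libraries 1 and 2, red for shTopors and dark blue for shCtrl. The red points of Cyr61, Nuak2, Smad6, Smad7, Id3 and Tgfb3 stand left of both dark points, while those of Myof, Axl and Fjx1 fall on both sides.

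Of the 15 targets of YAP and TEAD, 7 lay below both controls in both knockdown libraries (46.7%, against 35.2% of all tested genes). A further 5 had one knockdown library above and one below both controls (33.3%, against 16.5%), and 3 overlapped otherwise. The median difference of the 15 was -0.439. With median-of-ratios scaling it was -0.289 and with quantile normalization -0.209, so its sign held under both.

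Cyr61 and Ctgf encode CCN1 and CCN2, secreted matricellular proteins that serve as standard readouts of YAP. Cyr61 (chromosome 3, 145646976 to 145649981, minus strand, mm10) was at 43.5 and 51.3 TPM in shTopors and at 121 and 193 TPM in shCtrl. Both knockdown libraries lay below both controls, and the group means of 47.4 ± 5.49 and 157 ± 50.6 TPM (SD, n = 2 each) stood 3.32-fold apart. The log2 difference was -1.67 (SE 0.293, adjusted p = 0.130 by limma). Ctgf (chromosome 10, 24595442 to 24598683, plus strand) was the most abundant of the 36 genes in every library, at 1020.3 and 740.4 TPM in shTopors and at 1709 and 1597 TPM in shCtrl. Its log2 difference was -0.93 (SE 0.221, adjusted p = 0.178 in limma's test), with means of 880.4 ± 198 and 1653 ± 78.6 TPM (SD, n = 2 each).

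Nuak2, which encodes a kinase of the AMPK family, was at 52.4 and 66.3 TPM in shTopors and at 151 and 114 TPM in shCtrl. Both knockdown values were below both controls, with a log2 difference of -1.14 (SE 0.265, adjusted p = 0.177 in limma's test). A further pair of targets restrain YAP, AMOTL2 by binding it and the kinase LATS2 by phosphorylating it. Amotl2 was at 86.9 and 57.5 TPM in shTopors and at 127 and 121 TPM in shCtrl. Lats2 was at 25.9 and 26.7 TPM in shTopors and at 40.5 and 42.1 TPM in shCtrl, with little spread within either group. Lats2 shares exon positions on its strand with the second Lats2 identifier, so reads may have been split between them. The log2 differences were -0.80 (SE 0.274) for Amotl2 and -0.63 (SE 0.246) for Lats2, with adjusted p = 0.264 and 0.309 by limma.

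The other 2 targets below both controls were low. Dlc1, known as a tumour suppressor gene in liver, was at 0.634 and 0.597 TPM in shTopors and at 2.31 and 1.52 TPM in shCtrl. Edn1, the endothelin-1 gene, was at 1.58 and 2.62 TPM in shTopors and at 3.42 and 2.88 TPM in shCtrl.

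The shTopors libraries stood on opposite sides of the controls for Axl, Myof, Fjx1, Crim1 and Amotl1 and, among the factors, for Tead4. That is 6 of the 34 genes (17.6%), against 16.5% of all tested genes. Axl, a receptor tyrosine kinase gene, was at 430.5 TPM in shTopors 1 and 192 TPM in shTopors 2, against 285 and 196 TPM in shCtrl. Myof, the gene for the membrane repair protein myoferlin, was at 558 and 268 TPM in shTopors and at 378 and 381 TPM in shCtrl. Fjx1, whose fly counterpart regulates growth and planar polarity, went the other way, with 24.6 TPM in shTopors 1 and 61.9 TPM in shTopors 2 around 41.9 and 43.0 TPM in shCtrl. The controls of Myof and Fjx1 differed by far less than the knockdown pair, and for both genes the difference between the group means was smaller than the knockdown SD.

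Crim1, a gene for a membrane protein that binds BMPs, was at 35.5 and 19.0 TPM in shTopors and at 35.1 and 32.5 TPM in shCtrl. It shares exon positions with Fez2 on the opposite strand, and no source used here gives the strand setting of the authors' counting. Amotl1, a paralog of Amotl2, was at 48.4 and 31.7 TPM in shTopors and at 44.1 and 43.1 TPM in shCtrl. Thbs1, the thrombospondin-1 gene, whose product activates latent TGF beta, differed most between the knockdown libraries, at 29.6 and 4.50 TPM, while shCtrl stood at 31.5 and 16.9 TPM. Its log2 difference was -0.90 (SE 0.740), and it was 0.34 without shTopors 2 and -2.13 without shTopors 1. Over all 34 genes, 6 differed by more than 1 on the log2 scale between the shTopors libraries (17.6%, against 10.8% of all tested genes), and 0 did so between the shCtrl libraries (against 2.38%).

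Ankrd1, a muscle-type ankyrin repeat gene and common YAP readout, was at 75.9 and 61.8 TPM in shTopors and at 87.7 and 71.7 TPM in shCtrl, and the groups overlapped. Ajuba, a LIM protein gene whose product inhibits LATS, was at 67.4 and 48.4 TPM in shTopors and at 77.9 and 61.8 TPM in shCtrl, also with overlap. Within a library, where a common scaling cancels, the ratio of Ctgf to Ankrd1 was 13.4 and 12.0 in shTopors and 19.5 and 22.3 in shCtrl. The ratio of Ctgf to Cyr61 was 23.4 and 14.4 in shTopors and 14.1 and 8.28 in shCtrl, and the nearest values of the groups, 14.4 and 14.1, all but met.

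**Figure D2:**
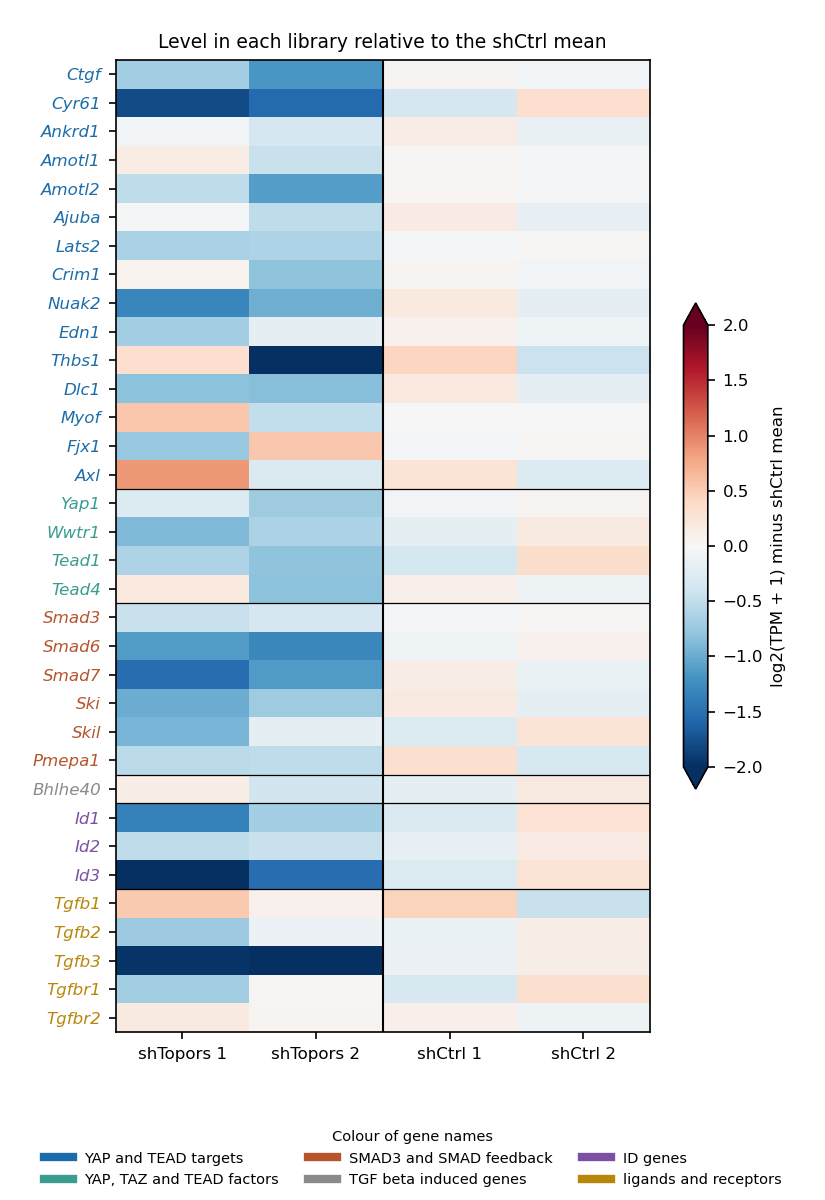
Level of each tested gene in each library as log2(TPM + 1) minus its shCtrl mean, in rows by role, with blue below and red above that mean and the colour limited to 2 in either direction. The ID and SMAD rows are blue in both shTopors columns, and Thbs1, Myof, Fjx1 and Axl differ in colour between them.

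Sequence before the start site was examined for the core word bound by TEAD factors, because YAP acts on its targets through TEAD. Of the 36 genes, 23 had an entry in the RefSeq promoter table (GRCm38.p6, the mm10 assembly), searched over the 250 bases before each start on both strands for GGAATG, whose reverse complement is CATTCC. The word was present for 7 of the 10 YAP and TEAD targets with an entry (70.0%) and for 3 of the other 13 genes (23.1%), against 12.6% of 32851 promoters. The core word of SMAD binding, CAGAC (reverse complement GTCTG), was present for 11 of the 23 genes (47.8%), against 42.2% of promoters, and among the 23 genes the TEAD and SMAD words overlapped only in Ankrd1, by 1 base. A match is a description of the letters and not a bound site. Lats2, Wwtr1 and Tgfbr1 each had 2 starts and were counted once, if either window held the word. The shares of promoters count each window. Tgfbr1 held the SMAD word before only 1 of its 2 starts. The search kept bases before RefSeq's start that GENCODE annotates as exon. The TEAD words of at least Ankrd1, Amotl2 and Id3 lay in such bases, as did SMAD words of Ankrd1, Id3 and Ltbp2. Below are 3 of the 7, chosen after their values were seen because their levels differed in pattern. Cyr61 and Edn1 lay below both controls, and Axl stood on both sides. Each sequence runs 5′ to 3′ along the gene's strand up to the base before RefSeq's start, and capitals mark the TEAD word in either orientation.

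Cyr61, chr3:145649986-145650235, minus strand: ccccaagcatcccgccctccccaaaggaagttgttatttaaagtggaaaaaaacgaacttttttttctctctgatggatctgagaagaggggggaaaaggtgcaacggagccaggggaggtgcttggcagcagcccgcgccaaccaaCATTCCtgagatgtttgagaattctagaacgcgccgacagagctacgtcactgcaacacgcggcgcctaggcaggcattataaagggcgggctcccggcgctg
Edn1, chr13:42301226-42301475, plus strand: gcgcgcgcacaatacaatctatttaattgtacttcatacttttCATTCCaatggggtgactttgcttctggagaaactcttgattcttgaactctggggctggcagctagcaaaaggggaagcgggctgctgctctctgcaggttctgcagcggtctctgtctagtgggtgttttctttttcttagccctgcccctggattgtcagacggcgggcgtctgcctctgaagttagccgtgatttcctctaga
Axl, chr7:25788734-25788983, minus strand: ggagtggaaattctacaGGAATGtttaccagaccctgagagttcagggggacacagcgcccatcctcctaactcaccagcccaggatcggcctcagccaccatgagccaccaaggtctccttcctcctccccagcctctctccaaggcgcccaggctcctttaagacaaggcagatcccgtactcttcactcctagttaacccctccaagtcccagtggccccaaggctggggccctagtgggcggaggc

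Counted from the start, with -1 as the base before it, the word began at -103 in Cyr61, -207 in Edn1 and -233 in Axl. Ajuba, Amotl2, Ankrd1 and Crim1 also held the word, and Amotl1, Lats2 and Myof did not in this window. The RefSeq start used for Ajuba was not matched to a GENCODE transcript. The log2 differences of the 7 genes with the word ran from -1.67 (Cyr61) to 0.28 (Axl). Ctgf, Nuak2, Thbs1, Dlc1 and Fjx1 were not searched.

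Of the 4 factor genes that act on these targets, 3 lay below both controls (75%, against 35.2% of all tested genes). For 1 the knockdown libraries stood on opposite sides (25%, against 16.5%), and 0 passed the adjusted threshold. Yap1 was at 75.2 and 55.3 TPM in shTopors and at 87.2 and 94.6 TPM in shCtrl. Wwtr1, encoding TAZ, was at 16.1 and 19.3 TPM in shTopors and at 27.0 and 34.8 TPM in shCtrl. Both genes lay below both controls, with log2 differences of -0.49 (SE 0.258) for Yap1 and -0.76 (SE 0.278) for Wwtr1. Their adjusted p was 0.422 and 0.290 in limma's test. In every library Yap1 stood above Wwtr1, by 4.66 and 2.86 times in shTopors and by 3.23 and 2.72 times in shCtrl, ratios that overlapped between groups.

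Tead1 was at 26.8 and 23.5 TPM in shTopors and at 32.6 and 53.3 TPM in shCtrl, below both controls although the controls were far apart. Tead4 was at 23.2 and 10.998 TPM in shTopors and at 21.8 and 18.6 TPM in shCtrl. The median difference of the 4 factor genes was -0.598, and -0.388 after median-of-ratios scaling. Of 4 tested genes among other TEAD genes and their Vestigial-like partners, 3 lay below both controls (75%, against 35.2% of all tested genes). None of the 4 passed the adjusted threshold. Vgll4, whose product competes with YAP for TEAD, was at 50.5 and 101 TPM in shTopors and at 163 and 166 TPM in shCtrl. Tead2 was at 6.69 and 3.12 TPM in shTopors and at 9.66 and 10.6 TPM in shCtrl.

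Among 21 genes of the Hippo kinase cascade and its regulators, 13 lay below both controls (61.9%, against 35.2% of all tested genes), 1 lay above both (4.76%, against 14.6%) and 0 passed the adjusted threshold. Their median difference was -0.369. At an unadjusted p under 0.05, 5 were lower (23.8%, against 10.7%) and 0 higher. Mob1b, an activator of LATS kinases, was at 11.7 and 16.3 TPM in shTopors and at 27.8 and 37.4 TPM in shCtrl. Rassf5, a gene for a binding partner of MST1, was at 2.66 and 5.90 TPM in shTopors and at 13.6 and 12.2 TPM in shCtrl. Ptpn14, encoding a phosphatase that binds YAP and also counted among the further YAP targets below, was at 38.6 and 25.6 TPM in shTopors and at 76.6 and 60.0 TPM in shCtrl. Frmd6, an upstream FERM protein gene, was at 26.9 and 21.3 TPM in shTopors and at 18.5 and 19.3 TPM in shCtrl, above both. For these 4 genes the groups did not overlap.

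A further 15 tested YAP targets outside the 36 genes had 4 below both controls and 4 above both (26.7% each, against 35.2% below and 14.6% above among all tested genes), and 7 with the knockdown libraries on opposite sides (46.7%, against 16.5%). Their median difference was -0.068, above the -0.183 of all genes tested. Areg, the gene of the EGF receptor ligand amphiregulin, was at 27.6 and 9.30 TPM in shTopors and at 3.17 and 3.26 TPM in shCtrl. Gadd45a, a stress-response gene, was at 12.9 and 30.6 TPM in shTopors and at 62.0 and 64.5 TPM in shCtrl. Tnfrsf12a, encoding the receptor of TWEAK, was at 433 and 497 TPM in shTopors and at 359 and 281 TPM in shCtrl. Ereg was at 6.99 and 4.66 TPM in shTopors and at 3.79 and 3.75 TPM in shCtrl, and Arhgef17 at 26.0 and 17.0 TPM in shTopors and at 34.1 and 32.8 TPM in shCtrl. None of the 15 passed the adjusted threshold in limma's test. At an unadjusted p under 0.05 there were 3 higher (20%, against 3.98%) and 2 lower (13.3%, against 10.7%).

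**Figure D3:**
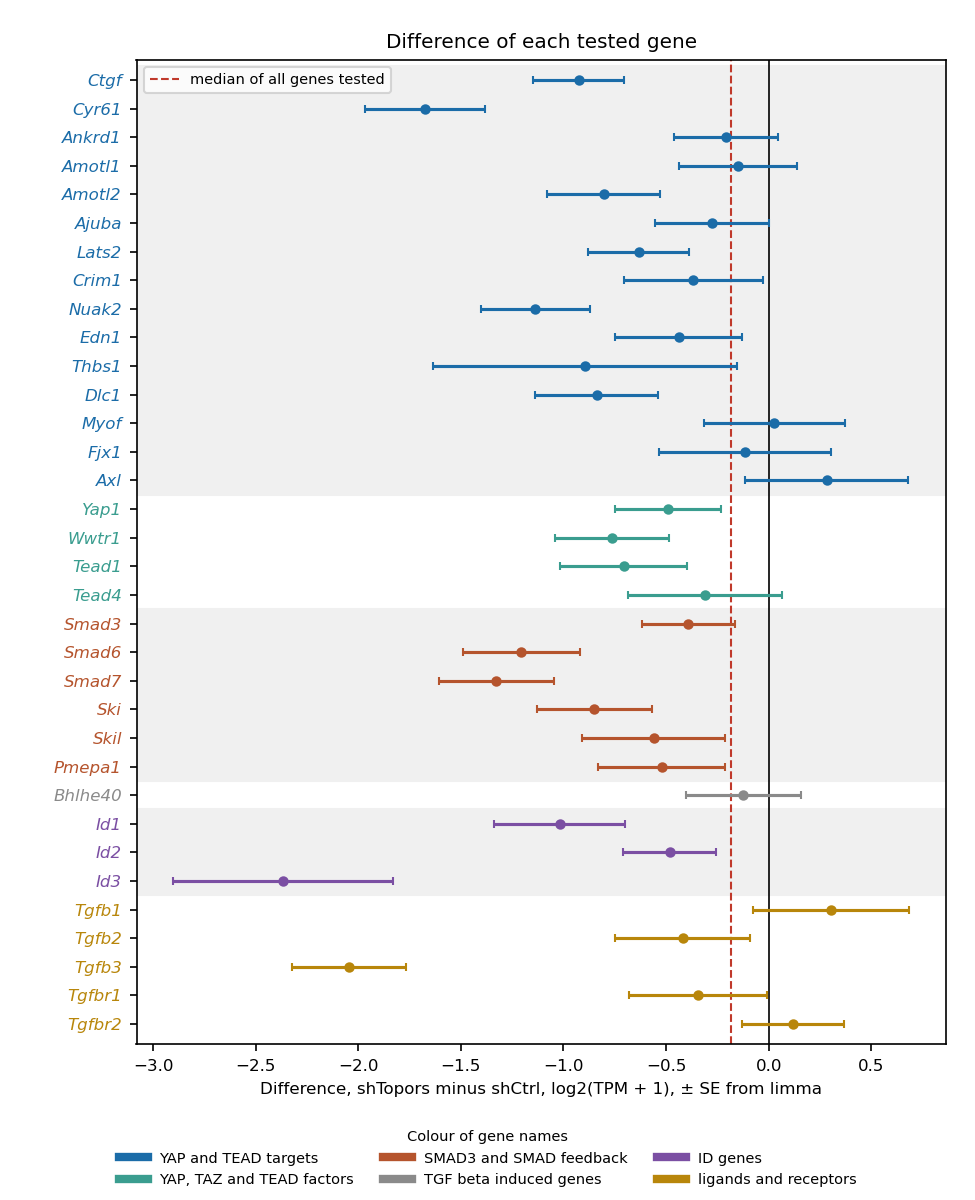
Difference of each tested gene, shTopors minus shCtrl, on the log2(TPM + 1) scale with limma's SE as bars, and the median of all genes tested (-0.183) as a dashed line. Id3, Tgfb3 and Cyr61 lie farthest to the left, and Axl, Tgfb1, Tgfbr2 and Myof lie right of 0.

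Of SMAD3 and the 5 genes of SMAD feedback, 0 of 6 passed the adjusted threshold, and all 6 differences were negative with each of the 3 scalings tried. Of the 6, 5 lay below both controls (83.3%, against 35.2% of all tested genes). At an unadjusted p under 0.05, 3 were lower (50%, against 10.7%), and the median difference was -0.705. With median-of-ratios scaling it was -0.499. Smad7 (chromosome 18, 75367529 to 75395935, plus strand), whose product blocks the type I receptor, was at 13.6 and 18.03 TPM in shTopors and at 44.9 and 37.1 TPM in shCtrl. The means of 15.8 ± 3.17 and 41.0 ± 5.52 TPM (SD, n = 2 each) stood 2.59-fold apart, with a log2 difference of -1.33 (SE 0.280) and adjusted p = 0.165 by limma. Smad6, which acts mainly against BMP receptors, was at 2.11 and 1.76 TPM in shTopors and at 5.39 and 6.14 TPM in shCtrl. Its means of 1.93 ± 0.246 and 5.76 ± 0.530 TPM (SD, n = 2 each) were 2.98-fold apart, with a log2 difference of -1.21 (SE 0.285, adjusted p = 0.177 in limma's test).

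Ski and Skil encode co-repressors that bind SMADs in the nucleus. Ski was at 14.8 and 18.2 TPM in shTopors and at 34.5 and 26.7 TPM in shCtrl, without overlap. Skil was at 16.3 and 27.9 TPM in shTopors and at 26.3 and 38.9 TPM in shCtrl, with overlap. Pmepa1, encoding a membrane protein that holds SMAD2 and SMAD3 from the receptor, was at 16.0 and 16.5 TPM in shTopors and at 30.01 and 18.7 TPM in shCtrl. Smad3 itself was at 82.9 and 88.7 TPM in shTopors and at 111 and 114 TPM in shCtrl, a log2 difference of -0.39 (SE 0.226, adjusted p = 0.451 in limma's test). The ratio of Smad3 to Smad7 within a library was 6.11 and 4.92 in shTopors and 2.47 and 3.09 in shCtrl, which did not overlap.

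Of 14 other tested SMAD genes and regulators, 8 lay below both controls (57.1%, against 35.2% of all tested genes) and 2 above both (14.3%, against 14.6%). None passed the adjusted threshold in limma's test, and at an unadjusted p under 0.05 there were 4 lower (28.6%, against 10.7%) and 0 higher. Bambi, a pseudoreceptor gene, was at 1.83 and 4.52 TPM in shTopors and at 6.27 and 13.3 TPM in shCtrl. Smad5, a BMP-regulated SMAD gene, was at 17.0 and 25.8 TPM in shTopors and at 36.8 and 43.5 TPM in shCtrl. Nedd4l, a ubiquitin ligase gene, was at 14.04 and 14.7 TPM in shTopors and at 23.2 and 29.7 TPM in shCtrl. The 2 genes above both controls were Smad1, at 27.5 and 32.0 TPM in shTopors and at 21.96 and 26.5 TPM in shCtrl, and Wwp1, at 10.4 and 12.7 TPM in shTopors and at 7.14 and 9.33 TPM in shCtrl.

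Of the 3 genes induced by TGF beta, 2 were not tested. Tgfbi, encoding a secreted matrix protein, was listed at 0 in all 4 libraries. Ltbp2, a matrix gene of the latent TGF beta binding family, was at 0.852 and 0.343 TPM in shTopors and at 0.184 and 0.145 TPM in shCtrl, under the filter in each library. Bhlhe40, a transcriptional repressor gene, was at 81.8 and 57.7 TPM in shTopors and at 66.3 and 84.6 TPM in shCtrl, with overlap. Of 19 tested TGF beta targets outside the 36 genes, 6 lay below both controls and 3 above both, and 0 passed the adjusted threshold. These shares, 31.6% below and 15.8% above, were near those of all tested genes, 35.2% and 14.6%. At an unadjusted p under 0.05, 3 were lower (15.8%, against 10.7%) and 1 higher (5.26%, against 3.98%). Hmga2, an architectural chromatin protein gene, was at 241 and 102 TPM in shTopors and at 36.9 and 26.7 TPM in shCtrl. Tgm2, the tissue transglutaminase gene, was at 314 and 291 TPM in shTopors and at 540 and 608 TPM in shCtrl. Vim was at 270.2 and 346 TPM in shTopors and at 603 and 555 TPM in shCtrl.

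Fstl3, an activin-binding follistatin gene that was counted here and among the BMP and activin genes, was at 30.7 and 30.3 TPM in shTopors and at 49.7 and 59.2 TPM in shCtrl. The genes above both controls were Hmga2, Col4a1, at 117 and 114 TPM in shTopors and at 97.9 and 84.9 TPM in shCtrl, and Plaur, at 109 and 102 TPM in shTopors and at 92.5 and 66.2 TPM in shCtrl.

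All 3 ID genes, whose products bind and inactivate bHLH transcription factors, lay below both controls in both knockdown libraries (against 35.2% of all genes). The sign of each difference was the same with each of the 3 scalings tried. Id3 (chromosome 4, 136143497 to 136145755, plus strand) was at 4.67 and 17.4 TPM in shTopors and at 42.4 and 62.7 TPM in shCtrl. Its means were 11.02 ± 8.98 and 52.5 ± 14.3 TPM (SD, n = 2 each), 4.77-fold apart, and its log2 difference of -2.37 (SE 0.536) had adjusted p = 0.172 by limma. The difference was -1.52 without shTopors 1 and -3.21 without shTopors 2. Id1 was at 57.3 and 91.6 TPM in shTopors and at 122 and 180.1 TPM in shCtrl, with a log2 difference of -1.02 (SE 0.321, adjusted p = 0.244 in limma's test). Id2 was at 191 and 200.02 TPM in shTopors and at 244 and 307 TPM in shCtrl, a log2 difference of -0.48 (SE 0.226, adjusted p = 0.380 in limma's test). In every library the order of levels was Id2, Id1, Id3, and the share of Id3 in their sum was 1.84% and 5.62% in shTopors and 10.4% and 11.4% in shCtrl.

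The genes of BMP and activin signalling were listed together, and the BMP branch is the one known to induce ID genes. The list gave 15 tested genes with a median difference of -0.596. Of these, 9 lay below both controls (60.0%, against 35.2% of all tested genes) and 0 above. At an unadjusted p under 0.05, 6 were lower (40.0%, against 10.7%) and 0 higher, and 0 passed the adjusted threshold. Atoh8, a bHLH gene known as a BMP target in liver, was at 0.639 and 3.17 TPM in shTopors and at 10.9 and 12.4 TPM in shCtrl. Gdf15, a stress-induced cytokine gene counted in this list, was at 12.5 and 8.76 TPM in shTopors and at 29.9 and 85.9 TPM in shCtrl. Both lay below both controls, with adjusted p = 0.154 for Atoh8 and 0.172 for Gdf15 by limma.

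Among the ligand genes Tgfb3 stood apart. Tgfb3 (chromosome 12, 86056745 to 86079041, minus strand) was at 5.67 and 4.99 TPM in shTopors and at 23.0 and 27.3 TPM in shCtrl. Replicates lay close together in both groups, and the means of 5.33 ± 0.485 and 25.2 ± 3.09 TPM (SD, n = 2 each) were 4.72-fold apart. The log2 difference was -2.04 (SE 0.277), with the smallest adjusted p of the 34 genes, 0.0823 in limma's test. Tgfb1 was at 6.09 and 4.26 TPM in shTopors and at 5.70 and 2.65 TPM in shCtrl, and Tgfb2 at 1.42 and 2.70 TPM in shTopors and at 2.67 and 3.37 TPM in shCtrl. Both overlapped between groups.

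The ligand genes therefore differed in makeup within each library, a comparison that a common scaling cannot move. Tgfb3 made up 43.0% and 41.8% of the summed TPM of Tgfb1, Tgfb2 and Tgfb3 in shTopors and 73.3% and 82.0% in shCtrl. The sum itself was 13.2 and 11.9 TPM in shTopors and 31.3 and 33.4 TPM in shCtrl. In shCtrl Tgfb3 ranked first in both libraries. In shTopors 1 Tgfb1 exceeded Tgfb3, in shTopors 2 Tgfb3 exceeded Tgfb1, and neither gap was larger than the spread of Tgfb1 between the knockdown libraries.

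**Figure D4:**
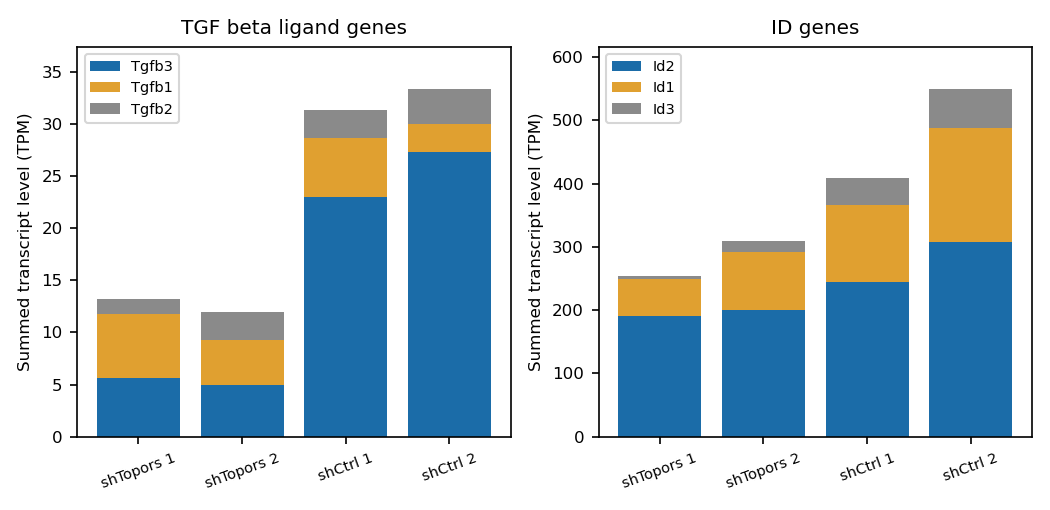
Stacked bars of the summed TPM of the TGF beta ligand genes (left) and of the ID genes (right) in each library, starting at 0. The Tgfb3 part is about 5 TPM in shTopors 1 and 2 and over 22 TPM in shCtrl 1 and 2, and the Id3 part is the smallest of the ID genes in every library.

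The receptor genes overlapped. Tgfbr1 was at 81.1 and 134 TPM in shTopors and at 107 and 165 TPM in shCtrl, and Tgfbr2 at 42.7 and 39.3 TPM in shTopors and at 40.5 and 34.9 TPM in shCtrl. Tgfbr1 stood above Tgfbr2 in every library, by 1.90 and 3.42 times in shTopors and 2.63 and 4.72 times in shCtrl. Of 7 tested genes for the latency and activation of TGF beta, 2 lay below both controls, 2 above both and 0 passed the adjusted threshold. The 2 are 28.6% of the list in either direction, against 35.2% below and 14.6% above among all tested genes. At an unadjusted p under 0.05, 2 were lower (28.6%, against 10.7%) and 1 higher (14.3%, against 3.98%). Ltbp1, which tethers latent TGF beta to matrix, was at 59.8 and 21.9 TPM in shTopors and at 15.5 and 12.7 TPM in shCtrl. Itgb6, encoding the integrin subunit that activates it, was at 38.4 and 24.0 TPM in shTopors and at 21.4 and 15.9 TPM in shCtrl. Fn1, the fibronectin gene, was at 183 and 542 TPM in shTopors and at 769 and 769 TPM in shCtrl.

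The absence of calls depended on which knockdown libraries entered. The fits covered 13607 genes without shTopors 1 and 13578 without shTopors 2. The fit without shCtrl 1 covered 33 of the 34 genes described, because Dlc1 fell under the filter. Without shTopors 1, 9 of the 34 genes passed as lower, namely Amotl2, Ctgf, Cyr61, Id3, Nuak2, Smad6, Smad7, Tgfb3 and Thbs1. Without shTopors 2, 9 passed as lower, namely Ctgf, Cyr61, Id1, Id3, Nuak2, Ski, Smad6, Smad7 and Tgfb3, and Axl passed as higher. The 2 lists of lower genes shared 7. In these fits the lone knockdown library is assumed to vary like the controls, and over all genes 921 were called lower and 242 higher without shTopors 1, and 1391 lower and 638 higher without shTopors 2. Without shCtrl 1 or without shCtrl 2, 0 of the 34 passed. The adjusted p of Tgfb3 in limma's test was 3.36e-06 and 5.53e-05 without shTopors 1 and 2, and 0.368 and 0.868 without shCtrl 1 and 2.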

How the data were processed

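RNA of AML12 cells was measured in 2 shTopors and 2 shCtrl libraries. Per the labels' protocols, RNA was extracted with TRIzol, depleted of ribosomal RNA and made into strand-specific libraries. The deposited values are TPM per gene and library, made by the authors. Per the submitters' processing notes, the build was mm10 and the tools were StringTie, HTSeq, HISAT2 and DESeq2, with no version or role stated. Which of them wrote the TPM, and with what strand setting, is not stated. Because TPM sums to a constant, abundant RNAs move the values of all other genes.

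Each column was matched to its sample by name, and values of 3 identifiers on several rows were summed. Coordinates came from GENCODE M21 (mm10). The test, on log2(TPM + 1), was limma's (limma 3.58.1, R 4.3.3) with the trend option, for shTopors minus shCtrl without covariates. It covered the 13509 genes averaging 1 TPM or more, with Benjamini-Hochberg adjustment and a threshold of 0.05. The step was tested on simulated data. The 36 genes, the role groups and the other lists were chosen with earlier results of these data known. By rule, the text names all 36 genes and, from each other list, up to 3 genes per direction of smallest p among those whose groups do not overlap and whose higher mean is at least 5 TPM. Alternatives were pseudocounts of 0.1 and 5, no filter or one at 5 TPM, 3 scalings, 2 variance models, the replicate number as a block, and leaving out each library. Counts of genes whose groups do not overlap under other settings were added after seeing the data. Tables and figures used Python 3.11.15, pandas 2.3.3 and matplotlib 3.10.9.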

Additional observations from a re-analysis of the deposited data

How the results depend on the processing

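Of the 34 tested genes, 0 passed as lower and 0 as higher under the other pseudocounts, filters, scalings and variance models, with the replicate block and without either shCtrl library. With 1 library left out, those called lower ranged from 0 to 9 and those called higher from 0 to 1. The filter at 5 TPM left 29 of the 34 genes in the fit, and leaving out shCtrl 1 left 33. Calls over all genes were 1 higher and 4 lower. They were 0 and 0 with no filter, and 0 and 1 with a filter at 5 TPM, under median-of-ratios scaling or quantile normalization, or with TPM rescaled after removing the 20 most abundant genes, mitochondrial genes and small RNAs. With 1 library left out they ranged from 0 to 638 higher and from 0 to 1391 lower. The numbers 1 and 2 are not stated to pair the libraries; the log2 difference of library 1 from 2 correlated across 13509 genes between the groups at 0.199 (genes are not independent replicates), and with the replicate block 6 genes were called higher and 27 lower.

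The median of the YAP and TEAD targets was -0.6 with a pseudocount of 0.1, -0.298 with 5, -0.289 with median-of-ratios scaling and -0.209 with quantile normalization, and from -0.613 to -0.33 with 1 library left out. Median-of-ratios scaling gave -0.499 for SMAD3 and SMAD feedback and -0.388 for the factors, and leaving out 1 library gave -0.959 to -0.605 for SMAD3 and SMAD feedback. Of the 34 genes, 17 lower and 1 higher had groups that did not overlap under either scaling. The higher share of all genes was then 26.0% with median of ratios and 24.6% with quantiles. With 1 library left out, 22 to 28 of the 34 were lower (64.7% to 82.4%) and 0 to 7 higher (0% to 20.6%). Fewer libraries separate more easily for any gene. Shares of all genes rose too, from 35.2% to between 40.2% and 54.5% lower, and from 14.6% to between 18.5% and 28.9% higher. After median-of-ratios scaling the differences of Amotl1 (0.06), Ankrd1 (0.004), Bhlhe40 (0.089) and Fjx1 (0.095) changed sign, and after quantile normalization that of Fjx1 (0.026). With 1 library left out the sign changed for Amotl1 (-0.448 to 0.149), Axl (-0.297 to 0.862), Bhlhe40 (-0.371 to 0.126), Crim1 (-0.802 to 0.068), Fjx1 (-0.761 to 0.534), Myof (-0.499 to 0.554), Tead4 (-0.817 to 0.196), Tgfb1 (-0.133 to 0.742), Tgfbr1 (-0.703 to 0.016) and Thbs1 (-2.13 to 0.342). The cause was not tested. Depth is unknown, so no limit on low genes such as Ltbp2 and Dlc1 can be given.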
